A study of Ovis aries with 16 samples.

Results

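HIF3A, SLC2A3, CITED2 and VDUP1 belong to the response of cells to low oxygen and to the control of glucose uptake, and their messenger RNA was quantified in frontal cortex from 16 sheep fetuses. The genes were found by name in the array files, or through the sheep gene to which a probe's source sequence belongs, and each was measured by 2 probes. These are 8 of the 15008 probes on the array and 4 of the 1025 genes to which a name could be given. VDUP1 is the name in the files for the gene now called TXNIP. For CITED2 the probe singled out was A_70_P024651, and the other probe of the gene, A_70_P024652, is given beside it.

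Cells that lack oxygen stabilize the alpha subunits of hypoxia-inducible factors (HIF), which pair with ARNT and switch on genes for glucose uptake, glycolysis and blood vessel growth. HIF3A is an alpha subunit of which several forms restrain the others, and CITED2 is a HIF-induced protein that competes with HIF for the coactivators CBP and p300. SLC2A3 encodes GLUT3, the main glucose transporter of neurons and a gene that HIF can activate. VDUP1 encodes a protein of the arrestin family that binds thioredoxin, removes glucose transporters from the cell surface and is itself induced by glucose.

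All fetuses were in late gestation and carried chronic arterial and venous catheters. In hypoxia, nitrogen was led into the trachea of the conscious ewe for 30 min, and ketamine, an antagonist of NMDA receptors, was given into the femoral vein of the fetus at 3 mg/kg shortly before. Of the fetuses, 5 were hypoxia control, 4 received hypoxia + ketamine, 4 normoxia + ketamine and 3 were normoxia control, each on 1 array, and the cortex was taken 24 h after the stimulus began. Most fetuses were twins by the study's methods, the labels do not tie fetuses to ewes, and every P value therefore treats fetuses as independent. The arrays lay on 2 slides, with 2 arrays of every group on slide 1 and on slide 2 the remaining 3 of hypoxia control, 2 of each ketamine group and 1 of normoxia control.

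The label of 1 array is in doubt. Hypoxia control replicate 1 carries that name in its title, but its source name and characteristics describe normoxia with ketamine. It had the highest level of SLC2A3 and of VDUP1 among the 16 arrays, so the log2 differences of these 2 genes between the study's groups are given as titled, without this array, and with it moved to normoxia + ketamine.

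The probe sequences are shown because the evidence for CITED2 and HIF3A turns on pairs of probes that are almost the same. A capital letter marks the base at an end that the other probe of the gene lacks. The CITED2 probes share 59 of their 60 bases and are printed whole. For the other genes the first 30 of the 60 bases are printed, 5′ to 3′ as in the array files. The HIF3A probes also share 59 bases, whereas the SLC2A3 probes start 156 bases apart on their source sequence and the VDUP1 probes 95 bases apart.
CITED2 A_70_P024652: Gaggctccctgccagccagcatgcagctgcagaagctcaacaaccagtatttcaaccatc
CITED2 A_70_P024651: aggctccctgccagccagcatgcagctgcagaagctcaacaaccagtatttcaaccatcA
HIF3A A_70_P014646: actttcagctagcagcaggcttggcccagg
HIF3A A_70_P014647: Cactttcagctagcagcaggcttggcccag
SLC2A3 A_70_P051106: ggaatttttcccagttctcagtgaccaggt
SLC2A3 A_70_P051107: attttggttctaagttctcaccattccctc
VDUP1 A_70_P001432: gatgtaagctaaaactggtctactatgtct
VDUP1 A_70_P001431: tacagaattctgcatttctgacactgatca

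The array files give no genome position for these probes, so none is stated. Over the 16 arrays the 2 probes of SLC2A3 correlated at r = 0.98 and those of VDUP1 at r = 0.97. The CITED2 probes correlated at 0.79 and the HIF3A probes at 0.55, although each of these pairs differs by a shift of 1 base. In what follows the probe with the higher mean stands for the gene, levels are log2 of the background-corrected, quantile-normalized intensity, and levels are not compared between genes. A probe was called where limma's moderated test gave an unadjusted P under 0.05, the threshold of the study's methods. No probe of the array passed Benjamini-Hochberg adjustment in any comparison. The counts at unadjusted P under 0.05 were 1197 for hypoxia, 1359 for ketamine in hypoxia, 347 for ketamine in normoxia, 1029 for hypoxia under ketamine and 953 for the interaction, and the lowest adjusted P values were 0.317, 0.263, 1, 0.431 and 0.734.

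**Figure D1:**
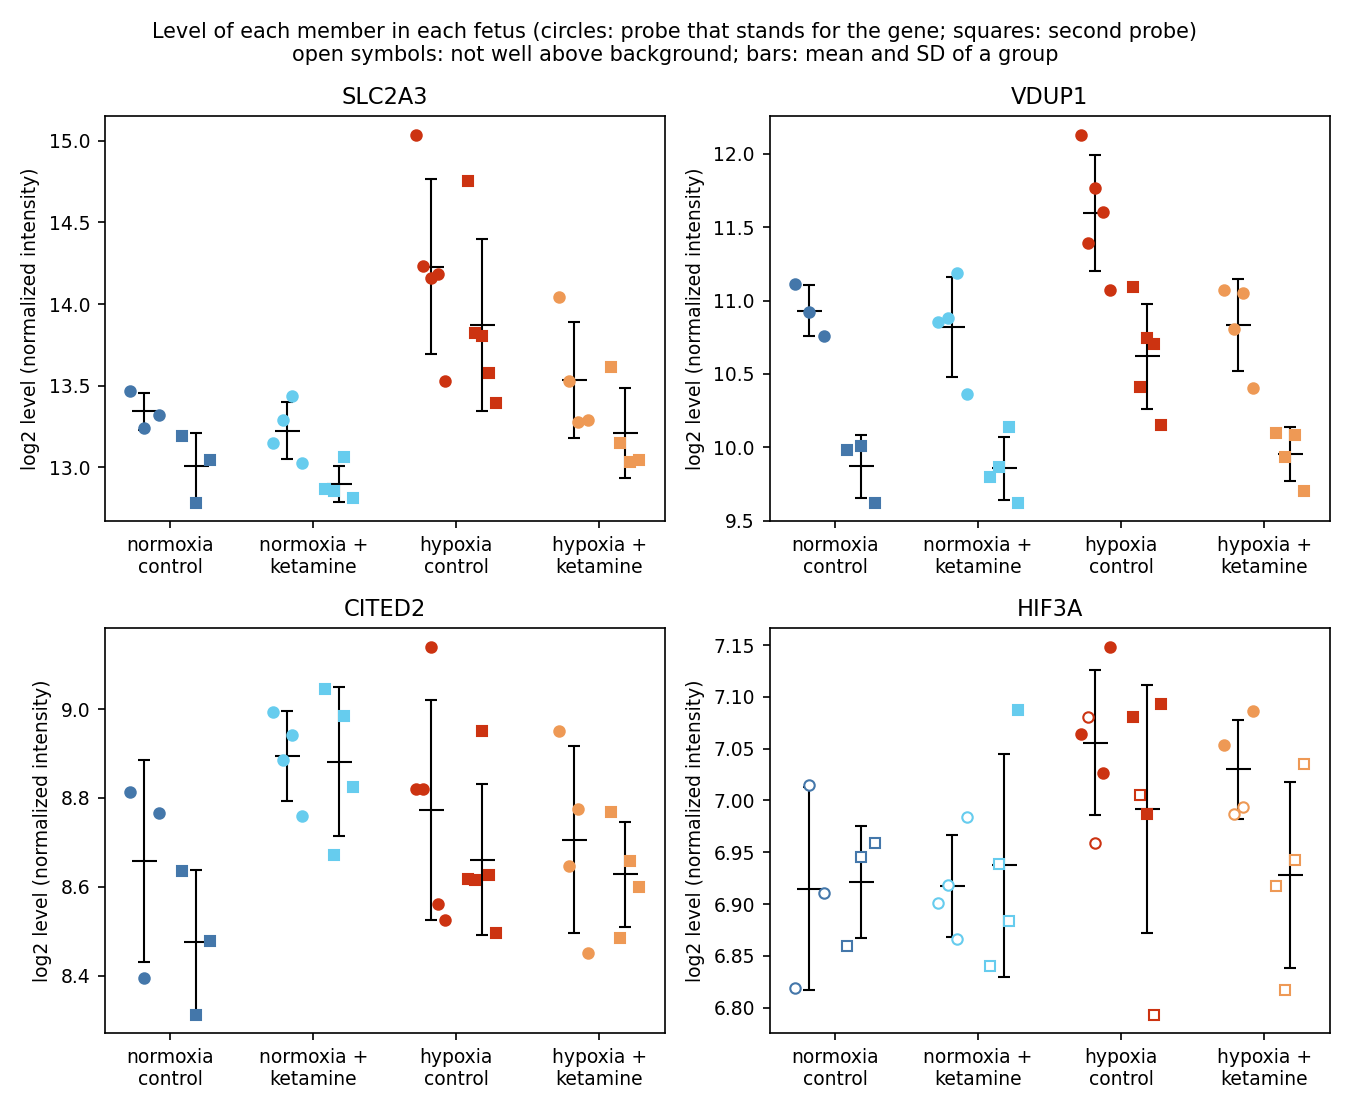
Log2 level of SLC2A3, VDUP1, CITED2 and HIF3A in each fetus (vertical axes, 1 panel per gene) by group (horizontal axes), with circles for the probe that stands for the gene, squares for its second probe, open symbols for spots not well above background, and bars for the mean and SD. The 5 hypoxia control fetuses hold the highest SLC2A3 levels beside 1 hypoxia + ketamine fetus at 14.04, and most HIF3A symbols are open.

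SLC2A3, the neuronal glucose transporter gene, was called higher after hypoxia with both of its probes. Its levels in normoxia control were 13.47, 13.24 and 13.32 for replicates 1 to 3. In hypoxia control they were 15.04, 14.23, 14.16, 14.19 and 13.53 for replicates 1 to 5. Every hypoxia control fetus lay above every normoxia control fetus, although replicate 5 did so by little. The means were 14.23 ± 0.54 (SD, n = 5) and 13.34 ± 0.11 (SD, n = 3). The log2 difference of 0.89 (standard error 0.25) is a 1.85-fold higher level, with a 95% confidence interval from 1.28 to 2.67 (limma, adjusted P = 0.34). A two-sided exact permutation test over fetuses gave p = 0.0357, the smallest that 5 against 3 fetuses allow. The second probe of SLC2A3 rose by 0.87 (standard error 0.23, adjusted P = 0.32), again without overlap.

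The call for SLC2A3 depended on where hypoxia control replicate 1 was placed. Without that array the difference was 0.68 (called). With the array moved to normoxia + ketamine the difference was 0.68 as well, but the spread grew and the probe was no longer called. The second SLC2A3 probe gave 0.65 both without the array (called) and with it moved (not called). Within slide 1 the difference was 1.28 (called), and within slide 2, where 1 fetus made up normoxia control, it was 0.64 (not called).

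VDUP1, the glucose-induced inhibitor of glucose uptake, rose in the same comparison. Its normoxia control levels were 11.11, 10.92 and 10.76. Those of hypoxia control were 12.13, 11.39, 11.77, 11.60 and 11.07. The 4 hypoxia control fetuses other than replicate 5 lay above all normoxia controls, so the groups overlapped by 1 fetus. VDUP1 averaged 11.59 ± 0.40 (SD, n = 5) after hypoxia against 10.93 ± 0.18 (SD, n = 3) in the normoxia controls. The log2 difference was 0.66 (standard error 0.22), a 1.58-fold higher level with an interval from 1.14 to 2.20 (limma, adjusted P = 0.488; two-sided exact permutation test, p = 0.0714).

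The second VDUP1 probe, A_70_P001431, separated these groups fully. It read 9.98, 10.01 and 9.62 in normoxia control and 11.09, 10.41, 10.74, 10.70 and 10.15 in hypoxia control. Its difference was 0.75 (standard error 0.18, adjusted P = 0.317), which equals the lowest adjusted P of any probe in this comparison, and the exact permutation p was 0.0357. For the probe that stands for VDUP1 the difference was 0.53 without hypoxia control replicate 1 (called) and 0.53 with that array moved (not called). The second probe was called at 0.63 in both cases. The first probe differed by 0.74 within slide 1 (called) and 0.72 within slide 2 (not called).

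CITED2, the HIF-induced competitor for CBP and p300, did not pass the test after hypoxia with either probe. The log2 difference between hypoxia control and normoxia control was 0.12 with an interval from -0.19 to 0.42 for A_70_P024652, and 0.19 with an interval from -0.05 to 0.42 for A_70_P024651 (two-sided exact permutation p = 0.5 and p = 0.25). A_70_P024651 was called without normoxia control replicate 1 (0.27), with the replicate number as a block (0.24), and when spots far below their local background were left out and the arrays scaled to the 75th percentile (0.29). A_70_P024652 was called with the replicate number as a block (0.25).

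HIF3A was close to the background of the array. The mean signal of A_70_P014646 ran from 57.0 to 78.3 intensity units over the 16 arrays, and it was well above background on 5 of them, 3 of the 5 hypoxia control and 2 of the 4 hypoxia + ketamine arrays but none of the 7 normoxia arrays. Its levels were 6.82, 7.01 and 6.91 in normoxia control and 7.06, 7.08, 6.96, 7.03 and 7.15 in hypoxia control. These groups overlapped, since 1 normoxia control fetus reached into the range of hypoxia control. With the normoxia control arrays set no lower than the lowest signal well above background on each array, the log2 difference from the measured mean of hypoxia control was 0.05 with this probe and -0.01 with the near-identical A_70_P014647. Since 2 of the 5 hypoxia control arrays were not well above background either, no fold is given.

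As measured, the HIF3A difference was 0.14 (standard error 0.057, limma adjusted P = 0.578; two-sided exact permutation test, p = 0.0714). It was no longer called without normoxia control replicate 1 (0.09), without normoxia control replicate 3 (0.14), without hypoxia control replicate 5 (0.12) or with hypoxia control replicate 1 moved to normoxia + ketamine (0.14). Over the alternatives in processing the difference ran from -0.15 to 1.08. The second HIF3A probe gave 0.07 (not called) and was well above background on 4 of 16 arrays, 3 hypoxia control and 1 normoxia + ketamine.

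Of the 6 probes of SLC2A3, VDUP1 and CITED2, all well above background on every array, 4 were called higher after hypoxia and none lower, where 3.34% of all probes were called higher and 4.64% lower. The first HIF3A probe, the other one called, is left out of this count because it was not well above background on any normoxia control array. With hypoxia control replicate 1 moved, the second VDUP1 probe alone of the 6 was called. Both SLC2A3 probes and the second VDUP1 probe, 3 of 8, had hypoxia control fetuses all above normoxia control, as did 2.11% of all probes with a value on every array of both groups. The 2 probes of a gene measure the same RNA and are not independent.

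**Figure D2:**
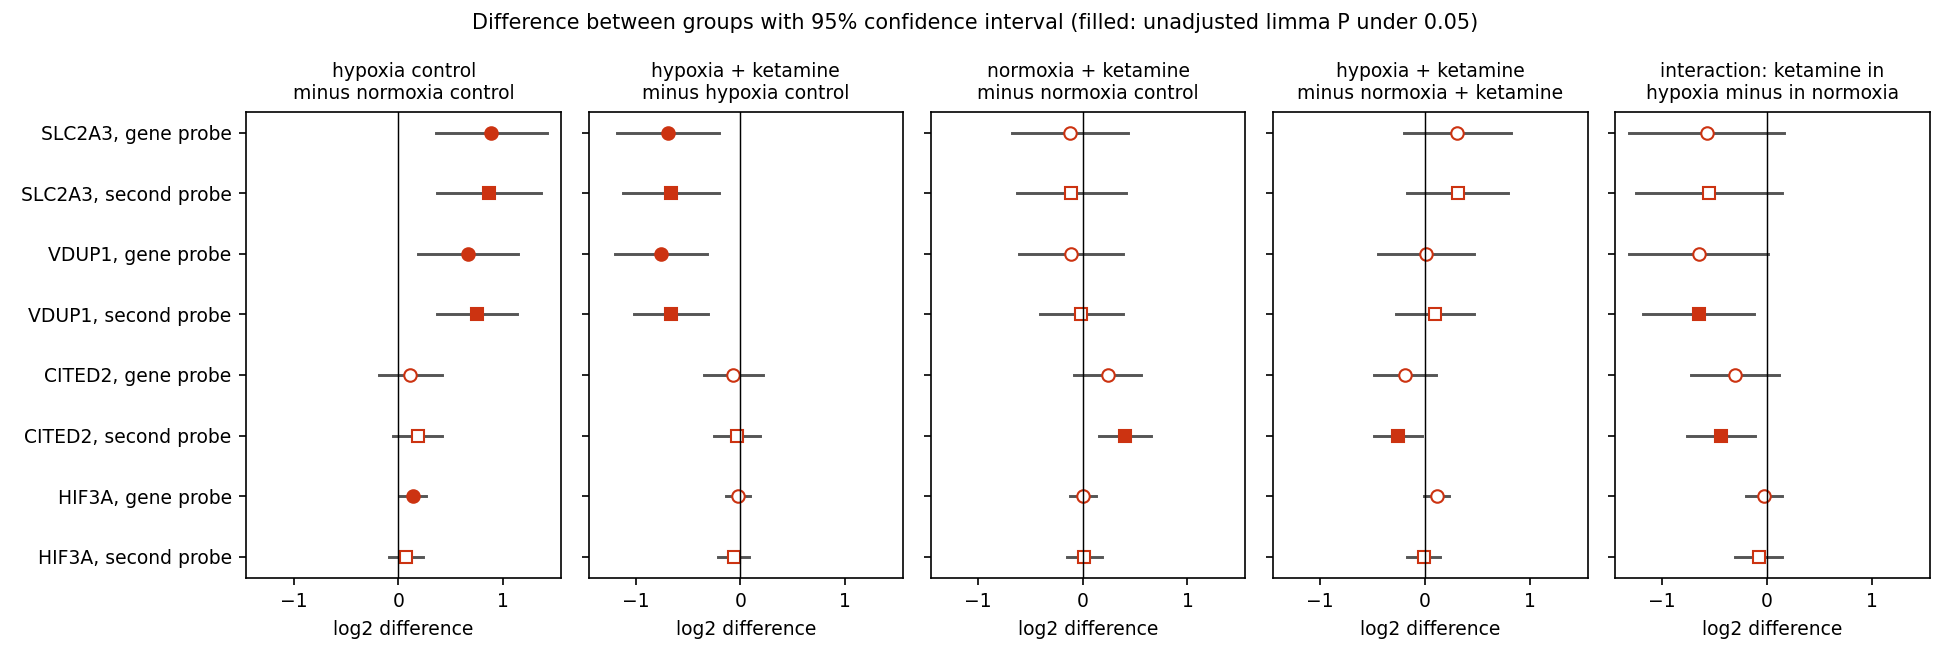
Log2 difference (horizontal axis, 0 meaning no difference) with its 95% confidence interval for the 2 probes of each gene (vertical axis) in 5 comparisons (panels), circles for the probe that stands for the gene, squares for the second probe, filled where limma's unadjusted P was under 0.05. SLC2A3 and VDUP1 lie to the right of 0 after hypoxia (0.89 and 0.66) and to the left with ketamine before hypoxia (-0.69 and -0.76), while of CITED2 the second probe is filled in the 3 panels that contain normoxia + ketamine.

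Ketamine before hypoxia was compared with hypoxia alone to ask whether the drug altered these responses. VDUP1 was lower with ketamine. Its levels in hypoxia + ketamine were 11.07, 10.81, 11.05 and 10.40, below all 5 hypoxia control fetuses, although the highest fetus with ketamine and the lowest without it were nearly level. The mean was 10.83 ± 0.31 (SD, n = 4). VDUP1 fell by 0.76 on the log2 scale (standard error 0.20), and hypoxia control was 1.69-fold higher (limma, adjusted P = 0.383). The two-sided exact permutation p was 0.0159, the smallest that 4 against 5 fetuses allow. The second VDUP1 probe averaged 9.96 ± 0.185 (SD, n = 4) with ketamine and fell by 0.66 (standard error 0.16, adjusted P = 0.367), again without overlap.

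This call for VDUP1 did not depend on the doubtful array. The difference was -0.63 without hypoxia control replicate 1 (called) and -0.63 with that array moved (called), and the second probe was called at -0.55 in both cases. The first probe differed by -0.82 within slide 1 (called) and -0.75 within slide 2 (not called).

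SLC2A3 was also lower with ketamine before hypoxia. It measured 14.04, 13.53, 13.28 and 13.29 in hypoxia + ketamine, with a mean of 13.54 ± 0.36 (SD, n = 4). Replicate 1 lay within the range of hypoxia control, and the other 3 fetuses lay below its lowest member. SLC2A3 fell by 0.69 (standard error 0.23), and hypoxia control was 1.62-fold higher (limma, adjusted P = 0.47; two-sided exact permutation test, p = 0.0317). The second SLC2A3 probe fell by 0.66 (adjusted P = 0.461).

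For SLC2A3 the ketamine difference in hypoxia was -0.49 without hypoxia control replicate 1 (called), and with the array moved it was also -0.49 but not called. The second SLC2A3 probe gave -0.44 in both cases, again called only without the array. The values within slides 1 and 2 were -0.85 (called) and -0.67 (called).

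Neither CITED2 nor HIF3A passed the test in this comparison. CITED2 differed by -0.07 (interval from -0.35 to 0.21) with A_70_P024652 and by -0.03 (interval from -0.25 to 0.18) with A_70_P024651. HIF3A differed by -0.03 (interval from -0.14 to 0.09). The two-sided exact permutation p values were 0.714, 0.825 and 0.556. In all, 4 of the 8 probes were called lower, where 3.56% of all probes were, and the 2 VDUP1 probes had groups that did not overlap, as did 0.569% of all probes in the same direction. The comparisons of hypoxia with normoxia and of ketamine in hypoxia share the same 5 hypoxia control fetuses, so a high value in that group enters both.

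In normoxia, 1 of the 8 probes, that of CITED2, was called higher with ketamine, where 0.88% of all probes were. In either direction 2.31% of all probes were called, a smaller share than a threshold of 0.05 gives on average where nothing differs. A_70_P024651 read 8.64, 8.31 and 8.48 in normoxia control and 9.05, 8.67, 8.98 and 8.82 in normoxia + ketamine. All 4 fetuses given ketamine lay above all 3 controls, as for 1.99% of all probes, and the lowest of them was just above the highest control. The difference was 0.41 (standard error 0.12), a 1.33-fold higher level with an interval from 1.12 to 1.57 (limma, adjusted P = 1; two-sided exact permutation test, p = 0.0571, the smallest that 4 against 3 allow). Its rank by limma's P was 14 among the 15008 probes, and that of A_70_P024652 was 1224. A_70_P024651 was singled out with earlier results of these data known, so its rank is a description and not support. The call was kept when any single array was left out. It was lost, at 0.17, when the arrays were scaled to their 75th percentile after normexp in place of quantile normalization. With the same scaling the call was kept once spots far below their local background were left out, an alternative chosen after seeing the data. Within slides the difference was 0.39 and 0.43, neither of them called.

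The near-identical CITED2 probe A_70_P024652 gave a smaller value. It read 8.81, 8.40 and 8.77 in normoxia control and 8.99, 8.89, 8.94 and 8.76 in normoxia + ketamine, and the groups overlapped. Its difference was 0.24 (standard error 0.15, not called), and the mean of both probes gave 0.32 (standard error 0.12, called). Both probes were well above background on all 16 arrays. CITED2 was thus called with 1 of the 2 probes that share 59 bases and with their mean.

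SLC2A3 and VDUP1 did not pass the test with ketamine in normoxia. SLC2A3 was 13.15, 13.29, 13.44 and 13.03 in normoxia + ketamine, a difference of -0.12 with an interval from -0.67 to 0.44 (two-sided exact permutation test, p = 0.4). VDUP1 was 10.85, 10.88, 11.19 and 10.37, a difference of -0.11 with an interval from -0.61 to 0.39 (two-sided exact permutation test, p = 0.8). Hypoxia control replicate 1 does not enter these differences as titled, but moving it to normoxia + ketamine turned them to 0.24 and 0.15, and those of the second probes from -0.11 to 0.26 for SLC2A3 and from -0.01 to 0.23 for VDUP1, none of them called. HIF3A was not well above background in either group with its first probe, and no fold is given.

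Whether ketamine acted differently in hypoxia and in normoxia was tested as an interaction, the ketamine difference in hypoxia minus that in normoxia. It was -0.58 for SLC2A3 (interval from -1.31 to 0.16, limma adjusted P = 0.804) and -0.65 for VDUP1 (interval from -1.31 to 0.01, adjusted P = 0.779), which did not pass the test. The second VDUP1 probe passed, at -0.65 (standard error 0.25, adjusted P = 0.734). Without hypoxia control replicate 1 the interaction was -0.37 for SLC2A3 and -0.52 for VDUP1, and with the array moved it was -0.74 and -0.78, none of them called. The second SLC2A3 probe gave -0.55 as titled, -0.33 without the array and -0.70 with it moved (not called), and the second VDUP1 probe remained called at -0.53 and -0.78. For CITED2 the interaction was -0.44 with A_70_P024651 (standard error 0.15, adjusted P = 0.734) and -0.30 with A_70_P024652 (not called), and with scaling to the 75th percentile A_70_P024651 gave -0.08 (not called). With that scaling A_70_P024651 was called once spots far below their local background were left out. Thus 2 of the 8 probes were called lower, where 2.41% of all probes were. With slide as a block, SLC2A3 and VDUP1 were called at -0.67 and -0.71. The replicate number as a block, which the labels do not say pairs the samples, also gave calls, at -0.82 and -0.89. A_70_P024652 was called with that block too.

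Hypoxia under ketamine was measured by setting hypoxia + ketamine against normoxia + ketamine. SLC2A3 differed by 0.31 (interval from -0.20 to 0.82) and VDUP1 by 0.01 (interval from -0.45 to 0.47), with two-sided exact permutation p = 0.171 and p = 0.971. The second probes gave 0.31 and 0.10. With hypoxia control replicate 1 moved to normoxia + ketamine, SLC2A3 turned to -0.05 and VDUP1 to -0.25, and their second probes to -0.06 and -0.15, none of them called. Without that array the differences are the same, and the second SLC2A3 probe was then called. CITED2 probe A_70_P024651 was lower, with 8.77, 8.48, 8.66 and 8.60 in hypoxia + ketamine and a difference of -0.25 (standard error 0.11, adjusted P = 0.692; two-sided exact permutation test, p = 0.0571), the only 1 of the 8 probes called lower where 3.74% of all probes were. That call was lost with scaling to the 75th percentile, where the difference was near 0 (8e-04). With that scaling it was kept once spots far below their local background were left out. Within slide 1 (-0.23) and slide 2 (-0.28) the call was lost. It was also lost with hypoxia control replicate 1 moved (-0.20), without normoxia + ketamine replicate 1 (-0.20) or replicate 3 (-0.22) and without hypoxia + ketamine replicate 2 (-0.21) or replicate 4 (-0.24). The first HIF3A probe read 7.05, 6.99, 6.99 and 7.09 in hypoxia + ketamine and 6.90, 6.92, 6.87 and 6.98 in normoxia + ketamine. It was well above background on 2 of the 4 arrays with hypoxia and on none of the 4 without it. Limma did not call it, while the two-sided exact permutation p was 0.0286, the smallest that 4 against 4 fetuses allow. The near-identical A_70_P014647 differed by -0.01. That probe was well above background on none of the 4 arrays with hypoxia and on 1 of the 4 without it.

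The order of the group means is given here as titled. SLC2A3 rose from normoxia + ketamine (13.23 ± 0.18, SD, n = 4) through normoxia control and hypoxia + ketamine to hypoxia control, and among neighbours only the last 2 were called, although their ranges overlapped. VDUP1 ran from normoxia + ketamine (10.82 ± 0.34, SD, n = 4) and hypoxia + ketamine through normoxia control to hypoxia control, again with only the last step called. The second VDUP1 probe placed normoxia control below hypoxia + ketamine, 2 groups whose difference was not called with either probe. CITED2 had its lowest mean in normoxia control and its highest in normoxia + ketamine with both probes. Of its neighbours only hypoxia control and normoxia + ketamine were called, and only with A_70_P024651 (-0.22, where 4.08% of all probes were called lower). For HIF3A no order is given, since its first probe was well above background on no normoxia array and its second probe ordered the groups differently. No neighbours were called with either probe.

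SLC2A3 and VDUP1 varied together from fetus to fetus. Over the 16 fetuses Pearson's r was 0.89 (permutation p = 1e-05, the smallest that 100000 resamples give, adjusted p = 6e-05 over 6 pairs of members) and Spearman's rho was 0.78 (permutation p = 0.00068, adjusted p = 0.0041). Hypoxia control replicates 1 and 2 lay farthest from the median of SLC2A3, and without them r was 0.81 (permutation p = 0.00041). With the group means removed, r was 0.78 (permutation p = 0.006, adjusted p = 0.036). It was 0.93 within slide 1 and 0.90 within slide 2 (permutation p = 0.0029 and p = 0.0026), and 0.81 without hypoxia control replicate 1. The group of that array does not enter the pooled r, and with group means removed r was 0.68 without it and 0.88 with it moved.

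**Figure D3:**
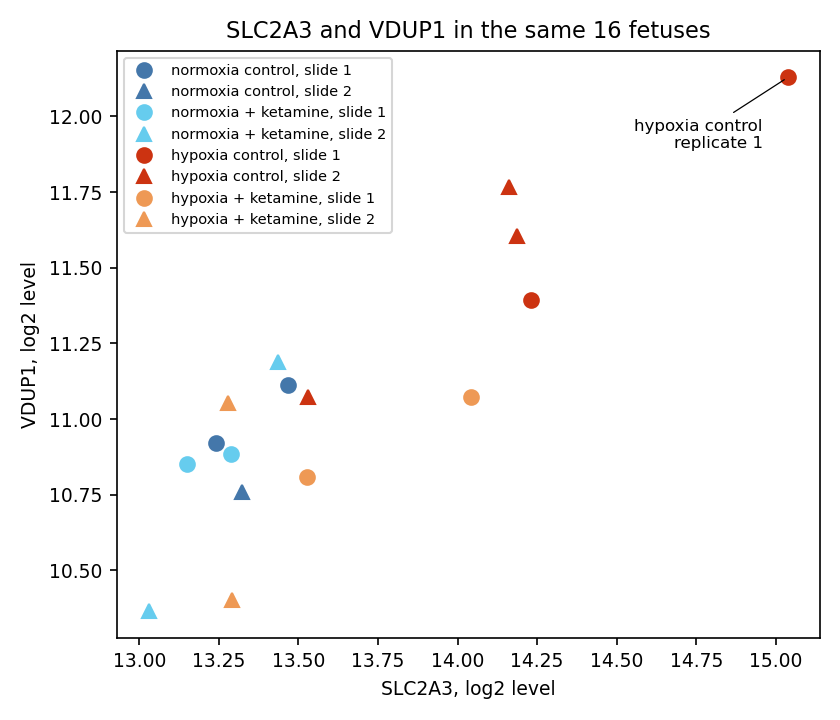
VDUP1 against SLC2A3, both as log2 levels, with 1 symbol per fetus, colours for the 4 groups, circles for slide 1 and triangles for slide 2. Fetuses with more SLC2A3 had more VDUP1 (r = 0.89), and hypoxia control replicate 1, whose labels conflict, is at the upper right at 15.04 and 12.13.

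The other 5 pairs of members did not pass adjustment over all 16 fetuses. The largest was CITED2 with HIF3A, at r = -0.49 (permutation p = 0.054, adjusted p = 0.16) and rho = -0.45 (permutation p = 0.08). With group means removed, HIF3A was related inversely to CITED2 (r = -0.69, adjusted permutation p = 0.04) and to VDUP1 (r = -0.60, adjusted permutation p = 0.04). For VDUP1 and HIF3A the pooled r had the other sign, 0.13. CITED2 and HIF3A had r = -0.19 within slide 1 and -0.74 within slide 2. HIF3A is so near background that these values describe dim spots.

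The named genes most like each member were taken by Pearson's r over the 16 arrays, among 636 named genes well above background on every array. Most like SLC2A3 were NFKBIA, the inhibitor of NF-κB (r = 0.90), and RCAN1, an inhibitor of calcineurin (0.86), followed by LOC100037681 (0.84), the mitochondrial folate enzyme gene MTHFD2 (0.79) and the pyridoxal kinase gene PDXK (0.79). For VDUP1 they were RCAN1 (0.80), the acetyl-CoA synthetase gene ACSS2 (0.80), the astrocyte filament gene GFAP (0.78), NFKBIA (0.77) and the endothelin-converting enzyme gene ECE1 (0.76). Both members thus shared RCAN1 and NFKBIA among their 5 nearest genes. The points share the arrays and the group differences, so these values are a description.

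CITED2 had weaker neighbours, with ST3GAL4 at 0.69, PGD at 0.66, RAP2A at 0.65 and IGF1R at 0.64. Those of HIF3A were SMCT1 at 0.77, NOX5 at 0.71, ZFP36 at 0.66, SLC12A4 at 0.65 and the lactate dehydrogenase gene LDHA at 0.63. The HIF3A probe used was well above background on only 5 arrays and correlated with its near-identical second probe at 0.55. The HIF3A values therefore describe dim spots.

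The other genes of the HIF pathway were taken from a list. Of 20 genes of a list of HIF subunits, hydroxylases and cofactors, the array held 7 under a name, of which 4 were well above background on every array. None of these 4, CITED2, HIF1A, ARNT2 and HSP90AA1, was called after hypoxia with the probe that stands for it. Of all probes 3.34% were called higher and 4.64% lower, so this count is near the background. The 2 called higher were dim on most arrays, HIF3A as described and ARNT, the partner of all alpha subunits, and are not set against the share of all probes. ARNT differed by 0.15 (called) with a probe well above background on 7 of 16 arrays and by 0.02 with its second probe. HIF1A, the main oxygen-regulated alpha subunit, differed by 0.25 (not called), EPAS1, the gene of HIF-2 alpha, by 0.01, ARNT2 by -0.15 and the chaperone gene HSP90AA1 by -0.05. The second ARNT2 probe was lower (-0.21, called). The median of the 7 genes was 0.12, against -0.02 over all probes. With ketamine in hypoxia none of the 7 was called, where 9.06% of all probes were called in either direction, and this count is near the background.

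Of 46 genes that HIF is known to activate, the array held 14 under a name. SLC2A3 and IGFBP3, a carrier of insulin-like growth factors, were the 2 called higher after hypoxia and none was lower, beside 3.34% and 4.64% of all probes. IGFBP3 rose by 0.75 (standard error 0.23, limma adjusted P = 0.444) and differed by -0.45 with ketamine in hypoxia (not called). The vessel growth factor gene VEGFA differed by 0.17 (not called), the endothelin gene EDN1 by 0.50 (not called), BHLHE40 by 0.16 (not called), the transferrin gene TF by -0.78 (not called), the cytokine gene MIF by -0.13 (not called) and the erythropoietin gene EPO, well above background on 2 arrays, by 0.08. The median of the 14 was 0.10. With ketamine in hypoxia only SLC2A3 of the 14 was called, as lower, where 3.56% of all probes were, and the median was -0.06 against 0.02 over all probes.

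SLC2A3 was also the 1 gene called among glucose transporters, of which the array held 4 of 15 under a name, and the same 3.34% of all probes was called higher. The fructose transporter gene SLC2A5 differed by 0.46 (not called; 0.56 with its second probe), the liver-type transporter gene SLC2A2 by -0.23 and the sodium-coupled transporter gene SLC5A1, near background, by -0.06. SLC2A1, the transporter of the blood-brain barrier, was not among the named probes and is not analysed here.

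The array held 9 of 36 genes of glycolysis and pyruvate use under a name, and their median was 0.04 after hypoxia. None of the 9 was called, and with 3.34% of all probes called higher and 4.64% lower a count of 0 among so few is near the background. GAPDH differed by -0.04, the hexokinase gene HK1 by 0.07, the aldolase gene ALDOA by -0.08 and LDHA by 0.14 (not called). With ketamine, LDHA was lower in normoxia (-0.29, called) and higher in hypoxia + ketamine than in normoxia + ketamine (0.37, called).

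**Figure D4:**
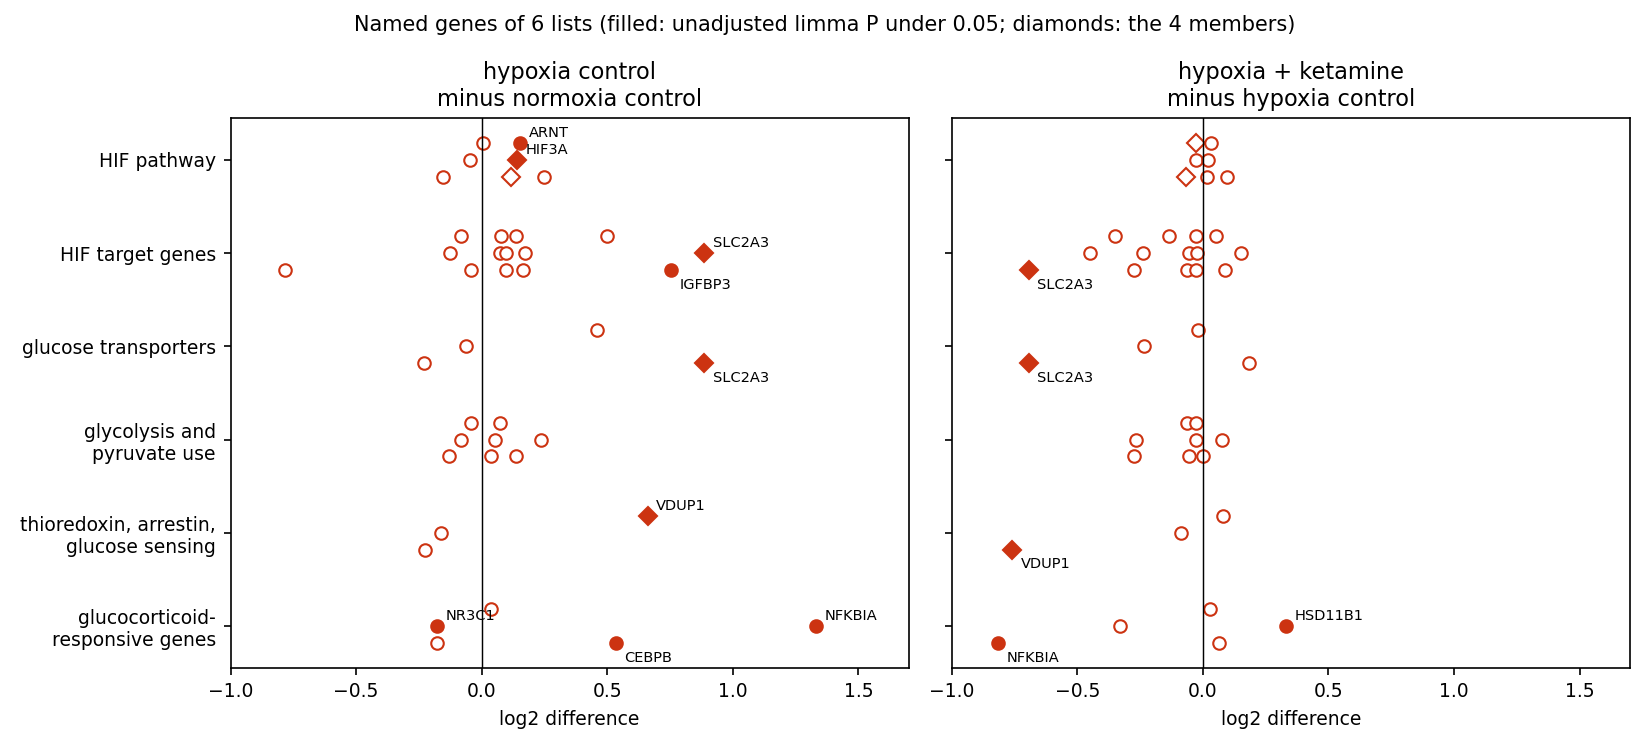
Log2 difference (horizontal axes) of the named genes of 6 lists, less 1 not shown (vertical axis) after hypoxia (left) and with ketamine before hypoxia (right), with diamonds for the 4 members and filled symbols where limma's unadjusted P was under 0.05. SLC2A3 (0.89) and VDUP1 (0.66) are the filled glucose genes on the left, SLC2A5 (0.46) is open, and no glycolysis gene is filled there.

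Around VDUP1, the array named 3 of 24 genes of thioredoxin, arrestin and glucose sensing, and VDUP1 was the 1 called, where 3.34% of all probes were called higher and 4.64% lower. Thioredoxin itself, TXN, which the VDUP1 protein binds, differed by -0.16 after hypoxia (not called), and its second probe was lower by this test (-0.19, called). The glutaredoxin gene GLRX differed by -0.22 (not called).

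Since VDUP1 and CITED2 also respond to glucocorticoids in many cells, a list of 23 glucocorticoid-responsive genes was examined, with 5 on the array under a name, of which 2 were called higher and 1 lower after hypoxia beside the same shares of all probes. NFKBIA rose after hypoxia by 1.33 (standard error 0.35, limma adjusted P = 0.32) and CEBPB, well above background on 14 arrays, by 0.54 (called). The receptor gene NR3C1 fell by 0.18 (called). With ketamine in hypoxia NFKBIA fell by 0.81 (called), and the cortisol-activating enzyme gene HSD11B1 differed by 0.33 with 1 probe (called) and by 0.18 with the other (not called). Whether glucocorticoids had a part in these differences or in those of VDUP1 and CITED2 was not tested.

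Of the markers of other cell types, GFAP and CD14 were called in the same directions as SLC2A3 and VDUP1. The array named 4 of 8 astrocyte markers, and GFAP alone was called after hypoxia, where 3.34% of all probes were called higher. GFAP differed by 0.79 after hypoxia (limma adjusted P = 0.317) and by -0.54 with ketamine in hypoxia (called). AQP4 and GJA1 differed by 0.03 and 0.09 after hypoxia. FGFR3 differed by 0.02, but its probe was well above background on only 1 array. GFAP and CD14 were also called lower in the interaction, at -0.70 and -0.74. So were the second VDUP1 probe, the neuronal gene GRIN1 (-0.63) and 2.41% of all probes. Of 12 microglia and macrophage markers 2 were measured, CD14 rose by 0.95 (adjusted P = 0.32) and fell by 0.60 with ketamine in hypoxia (called), and ITGAM was well above background on 4 arrays. The mean level of the astrocyte list ran from 10.17 to 10.50 in hypoxia control, 10.05 to 10.37 in hypoxia + ketamine, 10.03 to 10.21 in normoxia control and 10.06 to 10.24 in normoxia + ketamine. That of the microglia list ran from 7.44 to 8.29, 7.44 to 7.78, 7.30 to 7.60 and 7.48 to 7.65 in the same order. Their part in the results for SLC2A3 and VDUP1 was not tested, and in whole cortex more cells of a type and more RNA per cell cannot be told apart.

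Red blood cell, endothelial and choroid plexus genes gave other patterns. AHSP rose by 0.89 after hypoxia (called, as were 3.34% of all probes in that direction) and HBB differed by 0.59 (not called), 2 of 10 red cell markers, whose mean ran from 10.43 to 12.14, 10.53 to 11.31, 10.28 to 11.32 and 10.46 to 11.27 in that order. Neither was called with ketamine in hypoxia, where 9.06% of all probes were called in either direction, which is near the background for so few genes. Of 3 endothelial markers of a list of 9, none was called after hypoxia with the probe that stands for it, where 3.34% of all probes were called higher and 4.64% lower, and 1 of the other probes of KDR, the gene of a VEGF receptor, was called lower (-0.18). The choroid plexus gene TTR differed by -4.30 after hypoxia (standard error 1.64, limma adjusted P = 0.538) and was called lower. Its levels were very uneven in normoxia control (SD 3.73, n = 3), and it differed by -3.44 with ketamine in normoxia (not called). IGF2, IGFBP2 and AQP1 were not called after hypoxia. The mean of these 4 of 7 markers ran from 9.40 to 11.57, 9.61 to 10.99, 10.15 to 12.11 and 10.03 to 11.45. The neuronal receptor gene GRIN1, the 1 named marker of 14, differed by -0.01 after hypoxia and by -0.37 with ketamine in hypoxia (not called; -0.35 with its second probe). It was called lower in hypoxia + ketamine than in normoxia + ketamine (-0.63) and in the interaction (-0.63). The part of GRIN1 in the ketamine difference of SLC2A3, a neuronal gene, was not tested. GRIN1, GFAP and AQP4 were well above background on all 16 arrays.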

How the data were processed

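RNA of 16 fetal frontal cortices was hybridized, 1 fetus per array, to 1-colour Agilent sheep arrays. The deposited scanner files hold the intensity of each spot, made by the authors with Feature Extraction (10.1.1.1 per the file headers), not normalized between arrays. The authors' deposited processed table holds log2 values after their own correction and quantile normalization, and served as an alternative. In R 4.3.3 with limma 3.58.1, mean signals were corrected by normexp on the median local background (offset 50), 536 control spots and 222 outlier spots were left out, arrays were quantile normalized, and spots were averaged to 15008 probes, of which 1656 carry a name. On each array 69.2 to 76.9% of spots were well above background, no member spot was saturated, and the number of arrays limits the precision.

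All 4 groups were fitted together with lmFit and eBayes, with Benjamini-Hochberg adjustment over all probes. Exact permutation p values double the smaller tail. On simulated independent noise with the design of the hypoxia comparison the fit recovered most of the largest planted changes. All planted changes were larger than the member differences after hypoxia in the main fit. Slides and shared ewes were not simulated. The members, lists, markers and tests were chosen with earlier results of these data known. The text names the 4 members with both probes, genes of the lists by their calls, and the 5 genes most like each member, except that 2 genes are not reported here. The 2 alternatives on the spots that enter the background fit were chosen after seeing the data. Sheep gene names came from the RefSeq table of ARS-UI_Ramb_v3.0, and promoter motifs were not examined.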

Additional observations from a re-analysis of the deposited data

Results flagged for a closer look

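In hypoxia control, replicate 3 stood apart for CITED2 probe A_70_P024651, at 8.95 against 8.50 to 8.63 in the other 4 fetuses. The gap to its neighbour was 0.712 of the range of the group, just past Dixon's critical value for 5 samples. It was the 1 outlier among 24 combinations of a probe and a group of 4 or 5 fetuses, and about 1 in 20 is flagged by chance. Without this fetus the ketamine difference of that probe in hypoxia was 0.04 in place of -0.03, and neither was called.

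The effect of ketamine differed between hypoxia and normoxia by an interaction test for 2 probes. For CITED2 probe A_70_P024651 the ketamine difference in hypoxia minus that in normoxia was -0.44 (limma adjusted P = 0.734), with -0.03 in hypoxia and 0.41 in normoxia. With scaling to the 75th percentile in place of quantile normalization it was -0.08 and not called, but with that scaling it was called once spots far below their local background were left out. For VDUP1 probe A_70_P001431 it was -0.65 (limma adjusted P = 0.734), with -0.66 in hypoxia and -0.01 in normoxia. Both were called at an unadjusted P under 0.05 and neither passed adjustment over all probes.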

How the results depend on the processing

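Leaving out 1 array at a time kept the calls of SLC2A3 and VDUP1 after hypoxia (0.6839 to 1.0611 and 0.5285 to 0.7923) and with ketamine in hypoxia (-0.8692 to -0.492 and -0.8896 to -0.6162) in all 16 fits each. In the same fits ketamine in normoxia gave -0.1882 to -0.0529 for SLC2A3 and -0.231 to 0.0431 for VDUP1, hypoxia under ketamine 0.1408 to 0.3956 and -0.1404 to 0.1553, and the interaction -0.751 to -0.3738 (called in 2) and -0.8028 to -0.507 (called in 6). CITED2 probe A_70_P024651 gave 0.1037 to 0.266, -0.0802 to 0.0392, 0.3246 to 0.4869, -0.3238 to -0.1992 and -0.52 to -0.3577 for hypoxia, ketamine in hypoxia, ketamine in normoxia, hypoxia under ketamine and the interaction. In this order A_70_P024652 gave -0.0155 to 0.193, -0.1493 to 0.0244, 0.1061 to 0.3145, -0.2708 to -0.1038 and -0.3865 to -0.1735, and HIF3A 0.0931 to 0.1911, -0.0499 to -0.0026, -0.0452 to 0.0528, 0.0937 to 0.1348 and -0.0785 to 0.0195. Probes called ran from 811 to 1379, 1079 to 1542, 277 to 516, 735 to 1193 and 724 to 1125.

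Scaling to the 75th percentile after normexp turned or ended several results, with 194, 208, 43, 323 and 183 probes called in that order. The calls of SLC2A3 and VDUP1 after hypoxia and with ketamine in hypoxia were kept. HIF3A became -0.1483, 0.3453, -0.6966, 0.8937 and 1.042 in the same order. CITED2 probe A_70_P024652 became 0.0218, -0.009, 0.0423 and 0.0308 for all but hypoxia, A_70_P024651 became 0.0931, 0.1733, 8e-04 and -0.0802, and VDUP1 under ketamine -0.0345. On normoxia control replicate 2, hypoxia control replicate 5 and hypoxia + ketamine replicate 3, 2, 3 and 6 spots lay over 50 units below their local background, and the median after normexp was 9.46, 8.91 and 10.11 against 7.86 to 8.13 on the other arrays. Without these spots, an alternative chosen after seeing the data, the medians were 8.07, 7.91 and 8.08, and of the member calls only that of A_70_P024651 after hypoxia differed, which was gained with scaling (0.2942).

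The VDUP1 interaction was called with the processed signal (-0.7173 scaled, -0.7467 quantile normalized), the authors' values (-0.6811), slide as a block (-0.7065, with SLC2A3 at -0.6667), array weights (-0.6815), the second probe (-0.6522) and the mean of both probes (-0.6514). Array weights gave VDUP1 -0.0014 under ketamine and 560 probes called with ketamine in normoxia, and a filter on dim probes 226. HIF3A with ketamine in normoxia was -0.0159 without background correction and -0.0063 in the authors' values. Under ketamine HIF3A was called without background correction (0.1872) and with offset 16 (0.1821), and was -0.0094 with the second probe. After hypoxia HIF3A was not called with the second probe (0.0703), the mean of both (0.1057) or only the groups compared (0.1411). Over the alternatives in processing its difference after hypoxia ran from -0.1483 to 1.0789 and its interaction from -0.4795 to 1.042. CITED2 was called with the second probe and with the mean for ketamine in normoxia (0.4065 and 0.3218) and the interaction (-0.4396 and -0.3721), and with the second probe under ketamine (-0.254).

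Within slide 1, HIF3A gave 0.1557 after hypoxia and -0.007 with ketamine in normoxia, and A_70_P024651 gave 0.0108, 0.3854, -0.2327 and -0.3746 for all but hypoxia. Within slide 2, after hypoxia, HIF3A gave 0.134, SLC2A3 0.637, CITED2 -0.023 and VDUP1 0.7215. VDUP1 was then -0.7539, 0.0164 and -0.0488 with ketamine in hypoxia, ketamine in normoxia and hypoxia under ketamine, and A_70_P024651 gave 0.4261, -0.2753 and -0.4881 for the last 3 tests. A slide holds 8 arrays, so fewer fetuses entered these tests.

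With the array of conflicting labels counted as normoxia + ketamine, calls were lost for HIF3A (0.1391), SLC2A3 (0.6839) and VDUP1 (0.5285) after hypoxia, SLC2A3 with ketamine in hypoxia (-0.492) and A_70_P024651 under ketamine (-0.2011). Ketamine in normoxia then gave 0.2443 for SLC2A3 and 0.1522 for VDUP1, and hypoxia under ketamine -0.0524 and -0.2495. With Benjamini-Hochberg adjustment 0 probes were called in any comparison by limma, so none of the member calls held: after hypoxia 0.1411 for HIF3A, 0.886 for SLC2A3 and 0.6624 for VDUP1, with ketamine in hypoxia -0.6941 and -0.7597, and for A_70_P024651 0.4065, -0.254 and -0.4396. With group means removed, r was -0.2943 for SLC2A3 and HIF3A, -0.5991 for VDUP1 and HIF3A and -0.6913 for CITED2 and HIF3A.

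The labels do not say that the replicate numbers pair the samples. Deviations of same-numbered arrays of different groups correlated from -0.108 to 0.373 (median 0.044), in 6 of 21 pairs above 0.1. Those of arrays with other numbers correlated from -0.301 to 0.201 (median -0.022), in 10 of 74 pairs above 0.1. These values do not settle whether the numbers pair the samples. With the replicate block the interaction was called for SLC2A3 (-0.824), VDUP1 (-0.8923) and CITED2 (-0.4407), and it was 0.0077 for HIF3A. The block gave CITED2 0.2517 and A_70_P024651 0.2447 after hypoxia, and CITED2 0.3111 with ketamine in normoxia and -0.1889 under ketamine. These were called with the block and not in the main fit. HIF3A gave 0.1049 after hypoxia (no longer called) and -0.0102 with ketamine in normoxia, and VDUP1 0.0027 with ketamine in normoxia. Except for the spots far below background, the cause of these changes was not tested. HIF3A is limited by its signal, near background on most arrays.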
